A study of Mus musculus with 16 samples.

Results

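The genes described here are 32 genes of heart muscle and of the regulators that set it up, chosen by name from a list and matched to the gene symbols of the count tables. All 32 were found among the 26411 genes listed, each in a single row, and all 32 passed the filter on low counts that left 15679 genes for testing. RNA-sequencing was performed on 16 whole mouse embryos at E9.5, 4 of each of 4 genotypes: Kat6a+/+Kat6b+/+ (wild type), Kat6a-/-Kat6b+/+ (Kat6a-/-), Kat6a+/+Tg(Kat6b) (Tg(Kat6b)) and Kat6a-/-Tg(Kat6b). Kat6a and Kat6b encode related histone lysine acetyltransferases, the Kat6a-/- allele is a constitutive deletion of internal exons, and Tg(Kat6b) is a bacterial artificial chromosome that carries the Kat6b gene with its own regulatory sequence and is present in several copies. All embryos came from crosses of FVB and BALB/c mice, each genotype held 2 female and 2 male embryos, and the comparisons ask which gene levels depend on Kat6a and which of them extra Kat6b restores.

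The wild type, Kat6a-/- and Tg(Kat6b) embryos came from 4 litters, 2 of which held wild type and Kat6a-/- embryos and 2 of which held wild type and Tg(Kat6b) embryos. The Kat6a-/-Tg(Kat6b) embryos came from 2 further litters that held no other genotype of the series, so in every comparison with them genotype and litter cannot be told apart. Library totals ranged from 14407277 to 45665680 counts, and the lowest count of any of the 32 genes in any embryo was 8, for Bmp10. Kat6b was at 46.2 ± 2.45 CPM (counts scaled to a common library total, SD, n = 4) in wild type and 197 ± 4.92 CPM in Kat6a-/-Tg(Kat6b) embryos. It ranged from 42.6 to 51.0 CPM in the 8 embryos labelled without and from 155 to 227 CPM in the 8 labelled with the transgene. Kat6a counts, 199 ± 16.5 CPM in wild type and 202.5 ± 15.2 CPM in Kat6a-/- embryos, do not check the null allele because they sum over the whole gene. A single embryo, Tg(Kat6b) replicate 3, stood apart in most of the heart genes, and Kat6a-/- replicate 1 in many of them. Some of the results that rest on them are given with and without them.

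The heart is the earliest organ to work in the mouse embryo, and at E9.5 it is a looped, beating tube with atrial and ventricular chambers forming. Transcription factors of the NKX2, GATA, HAND, MEF2 and T-box families act together in heart progenitors and switch on the genes of the sarcomere, the contractile unit in which myosin thick filaments slide along actin thin filaments. Calcium released from the sarcoplasmic reticulum through the ryanodine receptor starts each beat, and natriuretic peptides and BMP10 are secreted by the working chambers. Several of the regulators are also active outside the heart, for example ISL1 in motor neurons, HAND1 in extraembryonic mesoderm and GATA6 in endoderm. The RNA was from whole embryos, so a lower level of any of these genes through fewer cells that express it and through less RNA per cell cannot be told apart.

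Levels of different genes are given as RPKM, the CPM divided by the listed gene length in kilobases, as means over the 4 wild type embryos. Cardiac actin Actc1 was the most abundant of the 32 genes at 224 RPKM, followed by the atrial light chain Myl7 at 129, the calcium pump Atp2a2 at 101, the light chain Myl4 at 71.5 and troponin T Tnnt2 at 59.4 RPKM. Both cardiac myosin heavy chains were at like levels, Myh6 at 37.9 and Myh7 at 35.6 RPKM, and they are near-identical neighbours on chromosome 14, so reads shared between them could be split by the counting. The ventricular light chain Myl2 was at 19.7 RPKM. The regulators were lower, between 2.39 RPKM for Irx4 and 16.6 RPKM for Hand2. The giant sarcomere protein gene Ttn at 0.353, the ryanodine receptor gene Ryr2 at 1.15 and Bmp10 at 1.21 RPKM had the lowest levels. The spread over the wild type embryos was small for most genes, with a coefficient of variation between 1.07% for Tnni1 and 31.9% for Nppb.

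The sequences before the transcription start are shown for 5 genes, Actc1, Myl7, Myl3 and both natriuretic peptide genes. Actc1, Myl7 and Myl3 are the 3 of the genes searched that hold a serum response factor CArG box. Like all 14 sarcomere genes, they lay below every wild type embryo in Tg(Kat6b) replicate 3, so their levels there do not set them apart. They are the 250 bases before the start in RefSeq, on the GRCm38.p6 build, 5′ to 3′ along the gene, in lower case. Capitals mark a serum response factor CArG box in Actc1, Myl7 and Myl3, a TATA box (TATAAA) in Nppa, and a TATA box and a GATA element (AGATAA) in Nppb.
Actc1, chr2:114052876-114053125, minus strand: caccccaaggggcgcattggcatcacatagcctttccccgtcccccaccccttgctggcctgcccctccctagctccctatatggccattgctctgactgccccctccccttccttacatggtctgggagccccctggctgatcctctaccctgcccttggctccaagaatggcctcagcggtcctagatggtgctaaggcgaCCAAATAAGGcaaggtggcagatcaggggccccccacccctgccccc
Myl7, chr11:5898783-5899032, minus strand: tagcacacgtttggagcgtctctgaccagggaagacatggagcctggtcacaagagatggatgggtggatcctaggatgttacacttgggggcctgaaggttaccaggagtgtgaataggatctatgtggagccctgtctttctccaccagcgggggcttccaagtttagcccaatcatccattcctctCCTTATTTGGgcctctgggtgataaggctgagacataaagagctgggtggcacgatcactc
Myl3, chr9:110763428-110763677, plus strand: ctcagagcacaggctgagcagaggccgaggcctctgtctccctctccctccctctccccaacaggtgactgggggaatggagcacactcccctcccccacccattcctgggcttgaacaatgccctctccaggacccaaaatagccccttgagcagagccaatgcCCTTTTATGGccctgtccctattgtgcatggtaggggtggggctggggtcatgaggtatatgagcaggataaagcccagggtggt
Nppa, chr4:148000472-148000721, plus strand: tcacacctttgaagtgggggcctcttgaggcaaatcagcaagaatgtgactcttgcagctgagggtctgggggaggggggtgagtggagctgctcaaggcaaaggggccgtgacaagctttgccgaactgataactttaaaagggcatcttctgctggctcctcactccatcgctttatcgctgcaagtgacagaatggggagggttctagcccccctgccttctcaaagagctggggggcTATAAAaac
Nppb, chr4:147985650-147985899, plus strand: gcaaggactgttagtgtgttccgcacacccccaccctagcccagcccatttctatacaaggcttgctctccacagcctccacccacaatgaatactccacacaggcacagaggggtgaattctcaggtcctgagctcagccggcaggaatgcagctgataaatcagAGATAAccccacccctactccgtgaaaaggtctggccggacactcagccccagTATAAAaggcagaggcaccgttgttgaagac
RefSeq promoters were found for 28 of the 32 genes and not for Gata4, Gata6, Hand1 and Atp2a2. Both strands were searched, with each motif counted on its own. A gene counted if any of its promoters held the motif, while the share of all promoters is per promoter. Mef2c, Myh7, Myl2, Tnnt2, Tnni1 and Csrp3 have several promoters, which raises the shares of the 28 genes against those of all promoters. The CArG box was in the promoters of 3 of the 28 genes (10.7%) and in 1.47% of all 32851 promoters of this length. The GATA element was in 7 of the 28 (25%) and in 9.99% of all promoters, and the TATA box in 6 of the 28 (21.4%) and in 12.4% of all. The NKX2-5 element CACTTGA was in none of the 28 and in 2.68% of all, and the MEF2 element was in 1 of the 28, that of Ttn, and in 2.92% of all. These matches are descriptions of letters in a window and do not say that a factor binds there.

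**Figure D1:**
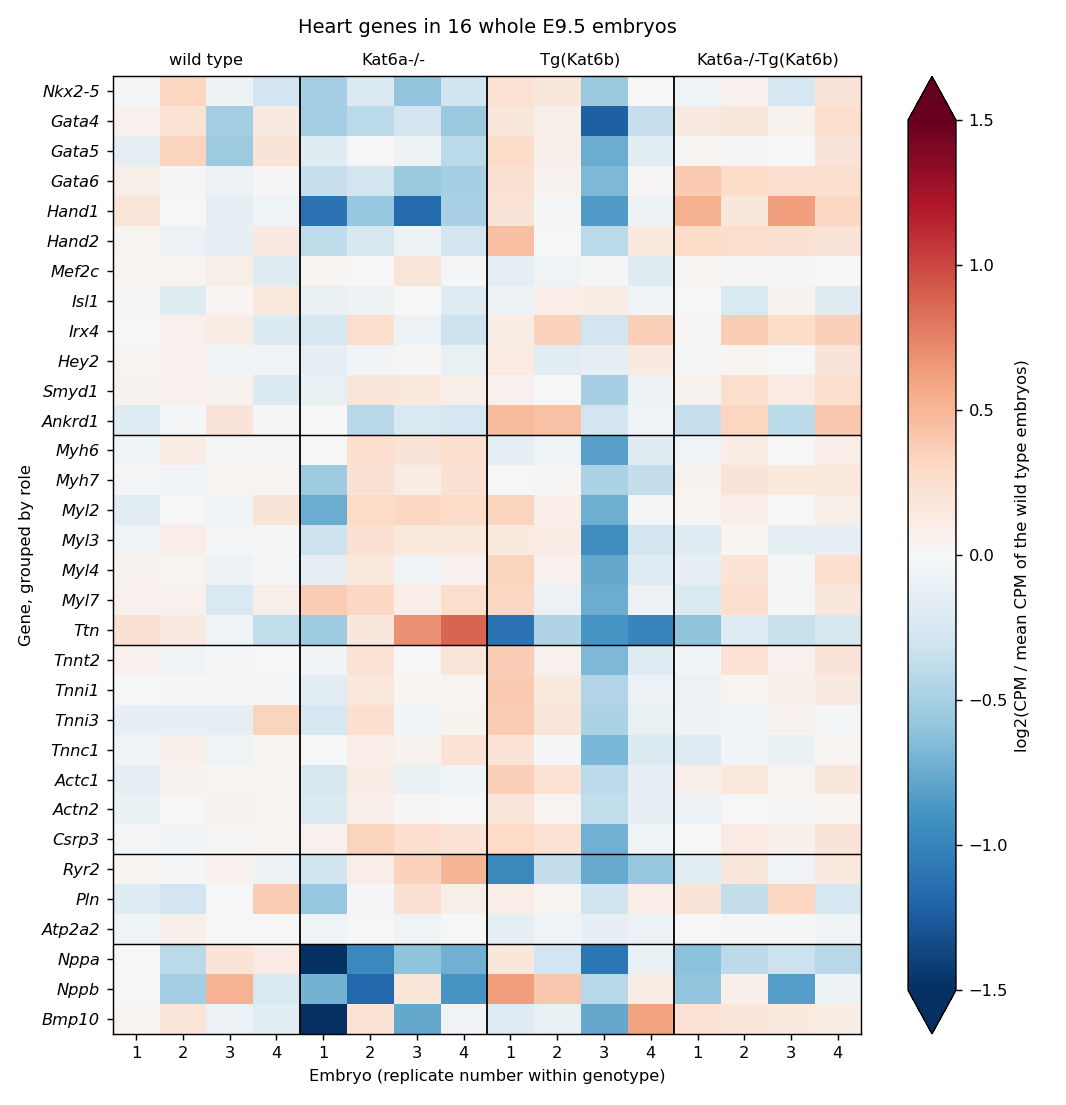
Level of each of the 32 heart genes (vertical axis, grouped by role from regulators at the top through thick filament, thin filament and Z disc, calcium handling and secreted factors) in each of the 16 embryos (horizontal axis, by genotype and replicate), as log2 of CPM over the mean CPM of the 4 wild type embryos, with the colour scale ending at -1.5 and 1.5. Tg(Kat6b) replicate 3 was low over most rows, Hand1, Gata6 and Nppa were low in all 4 Kat6a-/- embryos, and Hand1 and Gata6 were high in all 4 Kat6a-/-Tg(Kat6b) embryos.

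In Kat6a-/- vs. wild type embryos the fitted values furthest below 0 were those of Nppa, Hand1, Nppb, Gata4, Gata6 and Nkx2-5, and those of the contractile genes lay around 0. None of the 32 genes passed the test in edgeR at a false discovery rate (FDR, adjusted over all 15679 genes) of 0.05, where 1.88% of all genes passed. With limma-voom the count was also 0, with 1.63% of all genes passing, and with DESeq2 it was 2 (6.25%), Hand1 and Gata6, with 2.65% of all genes passing. At an unadjusted p under 0.05, edgeR gave 4 of the 32 genes, all lower, a share of 12.5% against 15.2% of all genes. The values of the genotypes did not overlap for 5 of the 32 genes (15.6%, against 7.97% of all genes): Hand1, Gata6 and Nppa lower and Myl7 and Csrp3 higher in Kat6a-/- embryos.

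Hand1, a basic helix-loop-helix factor of the ventricle and of extraembryonic mesoderm (Entrez Gene 15110, chromosome 11 of GRCm39, 57719531 to 57723644), was at 24.3, 21.4, 19.4 and 20.5 CPM in wild type and 9.96, 14.4, 9.51 and 15.2 CPM in Kat6a-/- embryos. Each Kat6a-/- embryo lay below each wild type embryo. The log2 fold change was -0.76 (95% interval -1.26 to -0.25; edgeR FDR = 0.142). Within litters, where both genotypes were litter mates, the log2 difference was -1.02 in litter 801 and -0.83 in litter 803, each with 2 Kat6a-/- embryos against 1 wild type embryo. Annotated exons of a gene on the opposite strand, Gm32915, overlap 36.8% of the exon bases of Hand1. Reads from the 2 strands could not be separated if the library preparation or the counting did not keep strand.

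Gata6, a zinc finger factor of heart progenitors and endoderm (Entrez Gene 14465, chromosome 18), was at 27.7, 25.8, 24.6 and 26.5 CPM in wild type and at 20.6, 21.6, 17.7 and 18.5 CPM in Kat6a-/- embryos. The groups did not overlap, and the log2 fold change was -0.42 (95% interval -0.73 to -0.11; edgeR FDR = 0.182), with -0.39 and -0.51 within the litters. The opposite-strand gene Gata6os overlaps 12.5% of its exon bases and was itself at a mean of 2.56 CPM in wild type and 1.39 CPM in Kat6a-/- embryos. Nkx2-5, the homeobox factor at the head of the cardiac programme, was at 10.5, 13.4, 10.1 and 8.79 CPM in wild type and 7.58, 9.31, 7.09 and 8.68 CPM in Kat6a-/- embryos, and its groups overlapped (log2 fold change -0.38, 95% interval -0.63 to -0.13; edgeR FDR = 0.109).

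Nppa, which encodes atrial natriuretic peptide (Entrez Gene 230899, chromosome 4, 148085091 to 148086583), had the largest fitted difference of the 32 genes. It was at 26.8, 20.1, 30.4 and 29.0 CPM in wild type and 4.76, 13.6, 17.4 and 16.1 CPM in Kat6a-/- embryos. The log2 fold change was -1.01 (95% interval -1.75 to -0.26; edgeR FDR = 0.187), and without Kat6a-/- replicate 1, the embryo at 4.76 CPM, it was -0.75 (edgeR FDR = 0.267). Within litters it was -1.74 in litter 801, which holds that embryo, and -0.26 in litter 803. Gm13054 on the opposite strand overlaps 60.4% of its exon bases. Its neighbour Nppb, brain natriuretic peptide, was at 3.07 ± 0.979 CPM in wild type and 2.10 ± 0.952 CPM in Kat6a-/- embryos (log2 fold change -0.66, 95% interval -1.38 to 0.06; edgeR FDR = 0.380).

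The calls for Hand1, Gata6 and Nkx2-5 changed with the embryos fitted. All 16 embryos shared one estimate, and without Tg(Kat6b) replicate 3, an embryo of neither genotype compared, the edgeR FDR was 0.00971 for Hand1, 0.00318 for Gata6 and 0.0496 for Nkx2-5, with log2 fold changes of -0.74, -0.41 and -0.37. These were the 3 of the 32 genes (9.38%) that passed there, against 2.24% of all genes. When litter was fitted as a block beside the surrogate variables, in the 12 embryos of these 4 litters, 0.129% of all genes passed and none of the 32. With sex in place of the surrogate variables 0.0515% of all genes passed and again none of the 32. In the fit with surrogate variables the log2 fold changes were -0.69 for Hand1 (edgeR FDR = 0.629), -0.30 for Gata6 (edgeR FDR = 0.681) and -0.46 for Nkx2-5 (edgeR FDR = 0.389). The values of Hand1 and Gata6 were smaller in size than both of their differences within litters. The part of litter and of the surrogate variables in this was not tested.

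Of the 14 thick filament, thin filament and Z disc genes none passed the test in Kat6a-/- vs. wild type embryos or had an unadjusted p under 0.05, and 12 of 14 had a log2 fold change above 0. The median was 0.12 over the 7 thick filament and 0.04 over the 7 thin filament and Z disc genes, where the median of all genes was 0.00. With offsets for the trend of each library with gene length, Tnni1, Myl4 and Tnni3 turned to values below 0. Actc1, cardiac actin, was at 299, 337, 333 and 337 CPM in wild type and 277, 353, 304 and 318 CPM in Kat6a-/- embryos, with a 95% interval of the log2 fold change of -0.37 to 0.24. The troponin subunits, which place calcium control on the thin filament, had intervals of -0.27 to 0.45 (Tnnt2), -0.17 to 0.36 (Tnnc1), -0.28 to 0.33 (Tnni1) and -0.31 to 0.40 (Tnni3). Actn2, which crosslinks actin at the Z disc, had one of -0.22 to 0.17, and Csrp3, a Z disc LIM protein, one of -0.10 to 0.54. Among the thick filament genes the interval was -0.11 to 0.46 for Myh6, -0.32 to 0.41 for Myh7, -0.36 to 0.38 for Myl4, -0.36 to 0.52 for Myl3 and -0.07 to 0.58 for Myl7. These intervals bound the differences and do not show that the levels were equal. The intervals were wider for Myl2, -0.45 to 0.68, and for Ttn, -0.20 to 0.96.

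Among the 12 regulators, 10 had a log2 fold change below 0 with a median of -0.19. Gata4, which acts with NKX2-5 on cardiac promoters, was at 29.8, 32.9, 20.1 and 31.2 CPM in wild type and 19.9, 21.4, 23.5 and 19.4 CPM in Kat6a-/- embryos, and a single wild type embryo overlapped the mutants (log2 fold change -0.43, 95% interval -0.97 to 0.10). Hand2, the partner of Hand1, had an interval of -0.56 to 0.08, Ankrd1, a stress-responsive cofactor, one of -0.62 to 0.11, and Gata5 one of -0.55 to 0.27. Isl1, a marker of the second heart field, had an interval of -0.21 to 0.04, and Mef2c, its partner in that field, one of -0.08 to 0.17. The ventricular factors Irx4 and Hey2 had intervals of -0.37 to 0.18 and -0.25 to 0.11, and the muscle methyltransferase Smyd1 one of -0.13 to 0.28. Of the calcium handling genes, Atp2a2 had the narrowest interval of the 32 genes, -0.09 to 0.04, its inhibitor Pln one of -0.28 to 0.29 and Ryr2 one of -0.15 to 0.56. Bmp10, a growth factor of the trabecular ventricle, had one of -0.97 to 0.35 on counts as low as 8. Opposite-strand genes overlap 45.9% of the exon bases of Pln, among them Cep85l, at a mean of 21.9 CPM in wild type embryos. For Atp2a2 the overlap is 30.3%, with Anapc7 among those genes at 93.9 CPM.

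**Figure D2:**
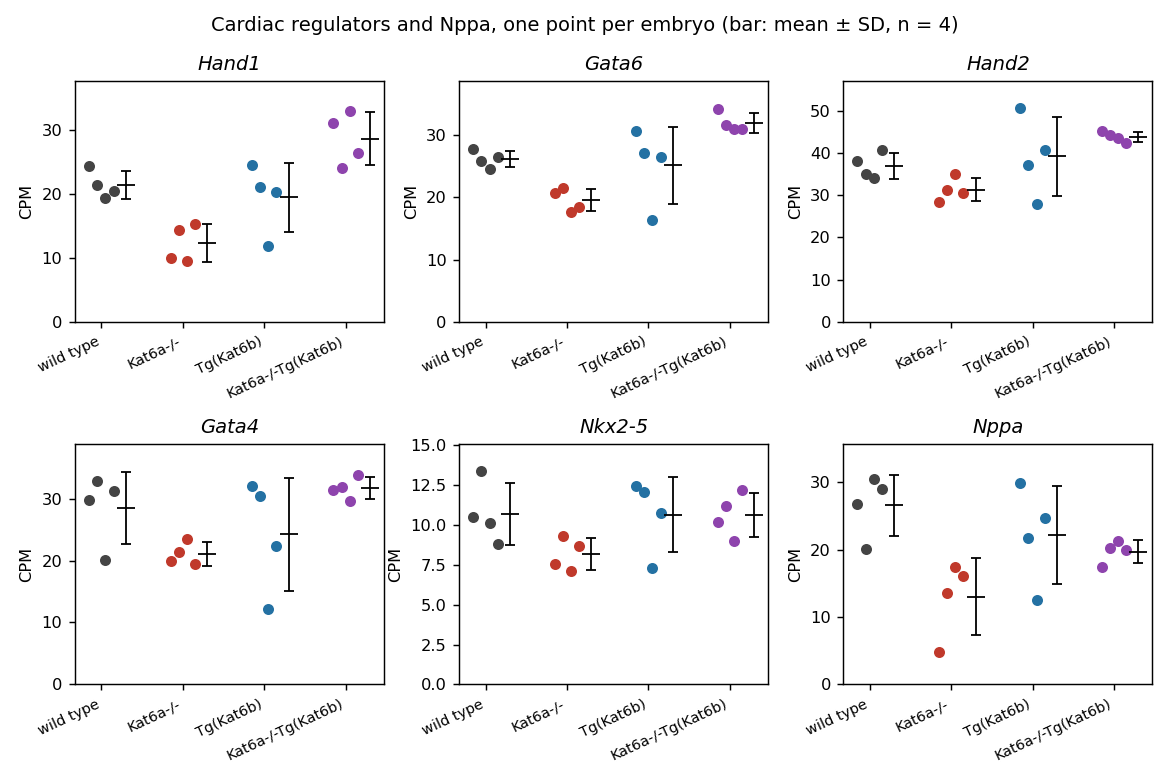
CPM of Hand1, Gata6, Hand2, Gata4, Nkx2-5 and Nppa (vertical axes, from 0) in each embryo of the 4 genotypes, with bars for mean ± SD (n = 4). All 4 values of Hand1, Gata6, Hand2 and Gata4 in Kat6a-/-Tg(Kat6b) embryos lie above all 4 values of Kat6a-/- embryos, and the lowest Tg(Kat6b) point of each panel is replicate 3.

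Hand1 and Gata6 were higher in Kat6a-/-Tg(Kat6b) vs. Kat6a-/- embryos and were the 2 genes of the 32 that passed the test. That share, 6.25%, was close to the 7.14% of all genes that passed in this comparison, so the number of calls does not set the heart genes apart. Hand1 was at 31.1, 24, 33.0 and 26.5 CPM in Kat6a-/-Tg(Kat6b) embryos, against at most 15.2 CPM in any Kat6a-/- embryo. The log2 fold change was 1.16 (SE 0.228; edgeR FDR = 0.0151), which is 2.23-fold. Gata6 was at 34.3, 31.6, 31.0 and 31.0 CPM, against at most 21.6 CPM in Kat6a-/- embryos, with a log2 fold change of 0.66 (SE 0.145; edgeR FDR = 0.0191), which is 1.58-fold. Both calls held in each of the 16 fits that left out 1 embryo, with log2 fold changes between 1.07 and 1.28 for Hand1 and between 0.58 and 0.71 for Gata6, and in all 12 other fits tried.

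At an unadjusted p under 0.05, 6 of the 32 genes (18.8%) differed, against 23.2% of all genes. Besides Hand1 and Gata6 these were Hand2 and Irx4, a ventricular homeobox factor, with higher values, and Myl7 and Ttn with lower values in Kat6a-/-Tg(Kat6b) embryos. Hand2, the partner of Hand1 in the heart fields, was at 45.2, 44.3, 43.5 and 42.4 CPM in Kat6a-/-Tg(Kat6b) and 28.5, 31.3, 35.0 and 30.6 CPM in Kat6a-/- embryos (log2 fold change 0.47, 95% interval 0.14 to 0.80; edgeR FDR = 0.0818). It passed the test without Tg(Kat6b) replicate 3 (edgeR FDR = 0.00103) and without Tg(Kat6b) replicate 1 (edgeR FDR = 0.00645), as it did with DESeq2 (adjusted p = 0.0225). The opposite-strand gene Hand2os1 overlaps its exons, 28.3% of which are covered by genes on that strand, and was at 2.23 CPM in Kat6a-/- and 3.25 CPM in Kat6a-/-Tg(Kat6b) embryos.

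Groups did not overlap for 4 of the 32 genes (12.5%, against 15.2% of all genes), and all 4 were regulators with higher values in Kat6a-/-Tg(Kat6b) embryos: Hand1, Gata6, Hand2 and Gata4. Gata4 was at 31.3, 31.9, 29.5 and 33.8 CPM in Kat6a-/-Tg(Kat6b) and 19.9, 21.4, 23.5 and 19.4 CPM in Kat6a-/- embryos. Its fitted interval still included 0 (log2 fold change 0.49, 95% interval -0.06 to 1.03; edgeR FDR = 0.268), and Gata4 passed the test without Tg(Kat6b) replicate 3, where 4 of the 32 genes (12.5%) and 7.87% of all genes passed. Ttn, at -0.71, passed without Kat6a-/- replicate 1 (-0.98; edgeR FDR = 0.0449). Of the 12 regulators 11 had a log2 fold change above 0 with a median of 0.18, while 12 of the 14 sarcomere genes had one below 0, with medians of -0.19 for the thick and -0.06 for the thin filament and Z disc genes. The median of all genes was 0.00. The direction of the sarcomere genes depended on the fit. With the gene length offsets Tnni1, Tnnt2, Myl4 and Tnni3 turned to values above 0, and Myl7 was at -0.10 in place of -0.34. For Nppa the difference was 0.66 with an interval of -0.14 to 1.46 (edgeR FDR = 0.308), and its values, 17.3, 20.2, 21.3 and 19.9 CPM in Kat6a-/-Tg(Kat6b) embryos, met those of the Kat6a-/- embryos at 17.4 CPM.

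Some markers of the early liver and visceral endoderm, Afp among them, were low and high in some of the same embryos as these regulators. Afp, the fetal serum protein made by both tissues, was at 37.1, 30.6, 8.13 and 44.8 CPM in wild type, 2.32, 4.14, 5.32 and 8.60 CPM in Kat6a-/-, 38.8, 37.3, 0.536 and 17.3 CPM in Tg(Kat6b) and 34.0, 26.3, 39.5 and 29.4 CPM in Kat6a-/-Tg(Kat6b) embryos. It was lowest in Tg(Kat6b) replicate 3, and the wild type embryo at 8.13 CPM was also the lowest wild type embryo for Gata4, at 20.1 CPM. The 12 genes of the list were all detected in every genotype, and their sum ranged over 149 to 204 CPM in wild type, 138 to 169 CPM in Kat6a-/-, 134 to 206 CPM in Tg(Kat6b) and 188 to 221 CPM in Kat6a-/-Tg(Kat6b) embryos. The list did not follow Afp throughout. Kat6a-/- replicate 1, the lowest of its genotype for Afp, was the highest for this sum, at 169 CPM. In Kat6a-/- vs. wild type embryos 4 of the 12 genes had a log2 fold change above 0. For Afp the log2 fold change between Kat6a-/-Tg(Kat6b) and Kat6a-/- embryos was 2.52 (edgeR FDR = 0.112). The part of these tissues in the values of Hand1, Gata6 and Gata4 was not tested.

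**Figure D3:**
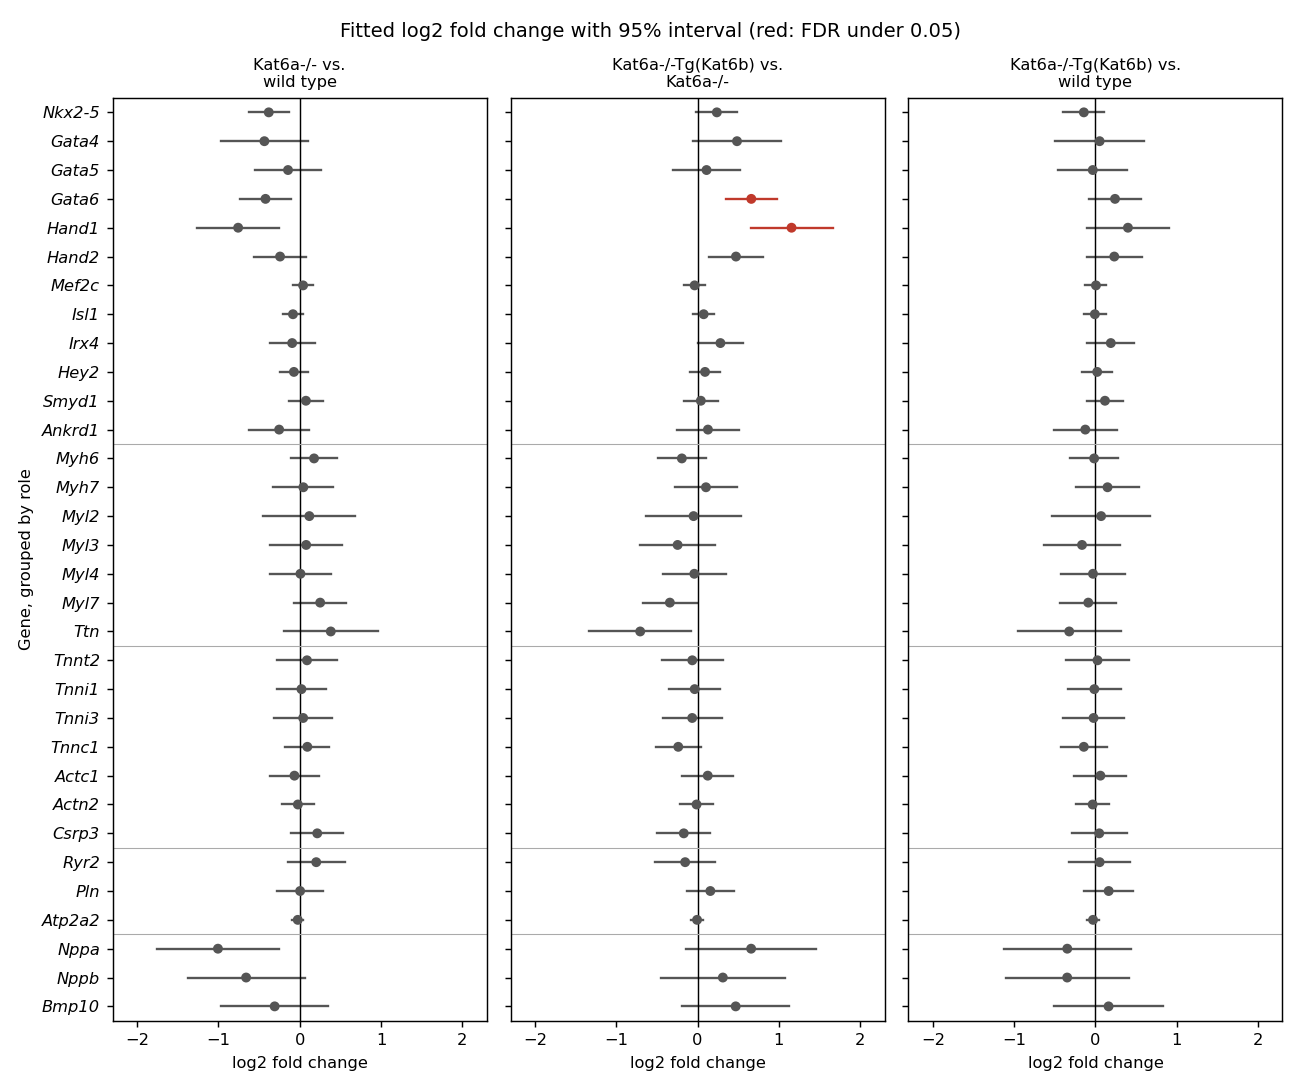
Fitted log2 fold change (horizontal axis) of the 32 genes (vertical axis, grouped by role) with its 95% interval in 3 comparisons, with calls at an FDR under 0.05 in red. Hand1 and Gata6 in Kat6a-/-Tg(Kat6b) vs. Kat6a-/- embryos are the 2 calls, and the intervals of the sarcomere genes other than Myl7 and Ttn include 0 in all 3 comparisons.

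Between Kat6a-/-Tg(Kat6b) and wild type embryos none of the 32 genes passed the test with edgeR, limma-voom or DESeq2, and 0.67%, 0.67% and 1.8% of all genes did. None had an unadjusted p under 0.05, where 12.7% of all genes did. The genes with the smallest p-values were Hand1, at 0.40 (95% interval -0.10 to 0.90; edgeR FDR = 0.509), Gata6, at 0.24 (-0.08 to 0.56; edgeR FDR = 0.538), and Hand2, at 0.23 (-0.10 to 0.57; edgeR FDR = 0.583). Groups did not overlap for 3 genes (9.38%, against 7.10% of all genes), Gata6, Hand2 and Myh7, with higher values in Kat6a-/-Tg(Kat6b) embryos. Every interval of the 32 genes included 0, and these intervals do not show that the levels were equal. For Nppa and Nppb the fitted values were both -0.35, with intervals of -1.13 to 0.44 and -1.10 to 0.41. When only these 2 genotypes were fitted, with sex as a covariate, Hand1 (0.42; edgeR FDR = 0.0133) and Gata6 (0.30; edgeR FDR = 0.0368) were higher than in wild type embryos, 2 of the 32 genes (6.25%) against 0.804% of all genes.

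The 2 comparisons with Kat6a-/- embryos and the comparison of Kat6a-/-Tg(Kat6b) with wild type share samples, so their values for one gene are tied to each other. The interaction of the genotypes, which asks whether the transgene changed the level by a different amount on the Kat6a-/- background than on the Kat6a+/+ background, passed for none of the 32 genes and for 0.153% of all genes in edgeR. It passed for 0 genes of the 32 with limma-voom (0.159% of all genes) and for 2, Hand1 and Gata6, of the 31 to which DESeq2 gave an adjusted p (1.07% of all such genes). At an unadjusted p under 0.05 it gave 2 of the 32 (6.25%, against 14.6% of all genes), the same genes: Hand1 at 1.28 (95% interval 0.56 to 1.99; edgeR FDR = 0.146) and Gata6 at 0.71 (0.26 to 1.15; edgeR FDR = 0.171) on the log2 scale. Ryr2 came next at 0.50 (-0.03 to 1.04; edgeR FDR = 0.369). Without Tg(Kat6b) replicate 3 both passed, at 1.11 (edgeR FDR = 0.0303) and 0.58 (edgeR FDR = 0.0175), where 0.285% of all genes passed.

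In Tg(Kat6b) vs. wild type embryos, with intact Kat6a in both, none of the 32 genes passed in edgeR, where 0.14% of all genes did. The count was 0 with limma-voom (0.115% of all genes) and 1, Ryr2, of the 28 to which DESeq2 gave an adjusted p (2.02% of all such genes). At an unadjusted p under 0.05 there were 3 genes (9.38%, against 11.5% of all genes), all lower: Ryr2, Atp2a2 and Ttn. Groups did not overlap for 3 genes (9.38%, against 4% of all genes), Ryr2, Ttn and Myh6, all lower. Ryr2, the calcium release channel (Entrez Gene 20191), was at 19.7, 19.1, 20.3 and 18.4 CPM in wild type and 9.96, 15.1, 11.5 and 13.1 CPM in Tg(Kat6b) embryos, with a log2 fold change of -0.66 (95% interval -1.03 to -0.28; edgeR FDR = 0.168). Ttn, the largest sarcomere gene (Entrez Gene 22138), was at 44.7, 41.6, 36.2 and 29.5 CPM in wild type and 17.6, 27.8, 20.5 and 19.2 CPM in Tg(Kat6b) embryos (log2 fold change -0.81, 95% interval -1.43 to -0.18; edgeR FDR = 0.284). For Atp2a2 the value was -0.10 (-0.17 to -0.03; edgeR FDR = 0.228).

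Ttn and Ryr2 are the longest of the 32 genes, with listed lengths of 107765 and 16813 bases. Long genes as a class were lower in Tg(Kat6b) replicates 1, 2 and 4 than in every wild type embryo. Over the 814 tested genes above 8000 bases in length the median log2 fold change was -0.16 in Tg(Kat6b) vs. wild type embryos, where the median of all genes was 0.00. For Tg(Kat6b) replicate 1, the embryo with the lowest Ttn and Ryr2, the long genes had a median of -0.36 relative to the wild type mean. In Tg(Kat6b) replicates 2, 3 and 4 it was -0.086, -0.064 and -0.111, where the wild type embryos ranged from -0.065 to 0.06. Replicate 3 was thus at the lower end of the wild type range and the others were below it. With offsets that hold the trend of each library with gene length, Ttn was at 0.09 and Ryr2 at -0.33 on the log2 scale. Gene length as a cause of these values was not tested. Between Kat6a-/-Tg(Kat6b) and Tg(Kat6b) embryos the log2 fold change of Ryr2 was 0.71 (95% interval 0.30 to 1.11; edgeR FDR = 0.0617), the median of the long genes was 0.19, and Ryr2 was at 0.38 with the length offsets. None of the 32 genes passed that test in edgeR, with 3.41% of all genes passing, 0 with limma-voom (3.77% of all genes) and 1, Ryr2, with DESeq2 (6.51% of all genes). At an unadjusted p under 0.05 there were 2 of the 32 (6.25%, against 18.9% of all genes), Ryr2 and Hand1, both higher. Hand1 was at 0.52 (0.01 to 1.04; edgeR FDR = 0.257) and Smyd1 at 0.22 (-0.01 to 0.44; edgeR FDR = 0.283). Tg(Kat6b) replicate 3 was the lowest of its genotype for Hand1, at 11.9 CPM. Over the fits that left out 1 embryo the value of Hand1 ranged from 0.36 to 0.69. Groups did not overlap for 5 (15.6%, against 10.5%), Ryr2, Mef2c, Myh6, Myh7 and Gata6, all with higher values in Kat6a-/-Tg(Kat6b) embryos.

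**Figure D4:**
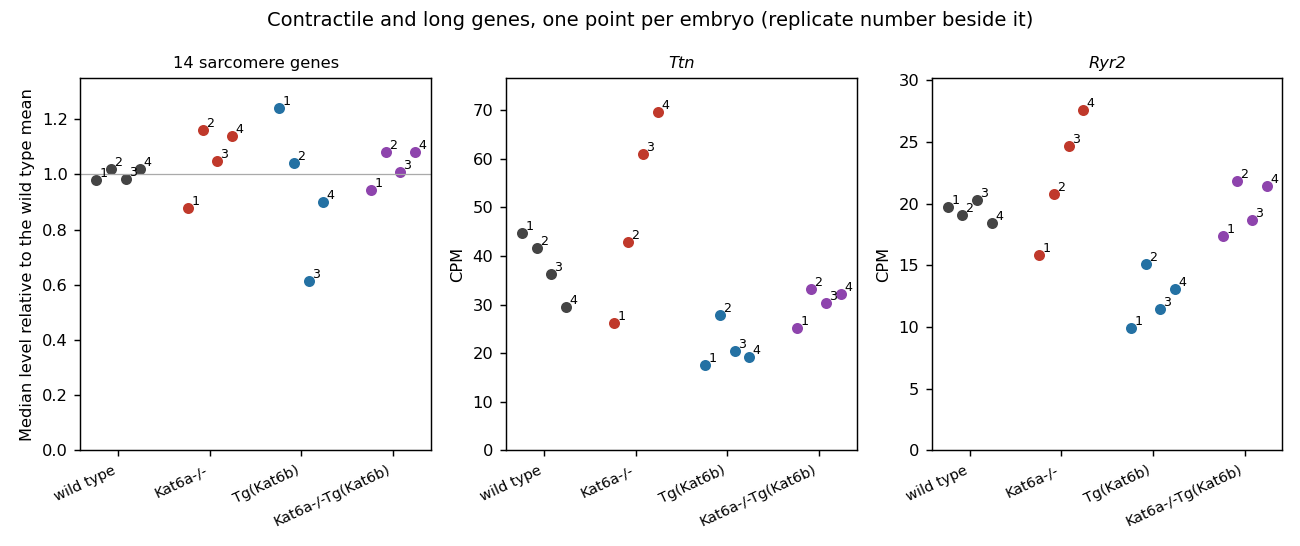
Median level of the 14 sarcomere genes in each embryo relative to the wild type mean (left), and CPM of Ttn (middle) and Ryr2 (right), all axes from 0, with the replicate number beside each point. Tg(Kat6b) replicate 3 lies at 0.614 in the left panel, and replicate 1, the highest there at 1.24, has the lowest Ttn and Ryr2.

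The sarcomere genes spread most widely among the Tg(Kat6b) embryos. The median of the 14 genes relative to the wild type mean was 0.979, 1.02, 0.982 and 1.02 in wild type, 0.879, 1.16, 1.05 and 1.14 in Kat6a-/-, 1.24, 1.04, 0.614 and 0.899 in Tg(Kat6b) and 0.943, 1.08, 1.01 and 1.08 in Kat6a-/-Tg(Kat6b) embryos. In Tg(Kat6b) replicate 3 all 14 sarcomere genes and 29 of all 32 genes lay below every wild type embryo. The exceptions were Isl1, Mef2c and Nppb, with Isl1 at 29.9 CPM within the wild type range of 24.3 to 30.7 CPM. Among the 4 Tg(Kat6b) embryos, replicate 3 was the lowest for 26 of the 32 genes, while over all tested genes it was the lowest for 27.2%. It was below every wild type embryo for 23.4% of all tested genes. Some lists of other cell types were also low in this embryo. Its sums were the lowest of its genotype for smooth muscle, 261 CPM against 279 to 353 CPM in the other 3, and for early liver and visceral endoderm, 134 against 167 to 206 CPM. For endocardium and cushions its sum was 993 against 1010 to 1080 CPM, and all 4 Tg(Kat6b) embryos lay below the wild type range of 1120 to 1200 CPM. The sum was within the range of the other 3 for epicardium, 77.8 CPM, and for primitive erythroid genes, 4980 CPM. It was the highest of its genotype for skeletal myotome, 167 CPM, and for second heart field and outflow tract, 620 against 578 to 614 CPM. The part of these tissues in its heart gene values was not tested.

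Kat6a-/- replicate 1 had a different pattern. It was the lowest Kat6a-/- embryo for 20 of the 32 genes (28.9% of all tested genes) and below every wild type embryo for 21 (23.6% of all tested genes). Myl2, the ventricular light chain, was at 30.5 CPM there against 62.2 to 63.0 CPM in the other 3, and Bmp10 at 0.443 CPM against 0.946 to 1.88 CPM. Myl7, the atrial light chain, was at 98.9 CPM, the highest of all 16 embryos. The ratio of Myl2 to Myl7 in RPKM was 0.0704 in this embryo and between 0.13 and 0.183 in the other 15. The ratio of Myh7 to Myh6 was also lowest there, 0.647, against 0.83 to 1.19 in the others. Without both embryos, Hand1 (-0.69; edgeR FDR = 0.0272), Gata6 (-0.43; edgeR FDR = 0.00636) and Nppa (-0.77; edgeR FDR = 0.0191) were lower in Kat6a-/- vs. wild type embryos and Myh6 was higher, 4 of the 32 genes (12.5%) against 1.23% of all genes, a setting chosen after seeing the data.

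Other genes of the heart were read from separate lists. Over all genes, 1.88% passed in edgeR in Kat6a-/- vs. wild type embryos and 15.2% had an unadjusted p under 0.05. In Kat6a-/- vs. wild type embryos 2 of 19 further cardiac regulators fell, Nkx2-6 (log2 fold change -0.66; edgeR FDR = 0.0101) and Irx5 (-0.27; edgeR FDR = 0.0121), and none rose. Of 26 further sarcomere genes and 21 further genes of calcium handling, conduction and muscle metabolism none passed in edgeR, with 0 and 2 of them at an unadjusted p under 0.05. Of 18 genes of the second heart field and outflow tract 5 fell and none rose: Hoxb1 (-0.66; edgeR FDR = 1.79e-05), Tbx1 (-0.65; edgeR FDR = 4.29e-05), Aldh1a2, Wnt5a and Foxc2. These lists were made with results of these samples known, so their counts are not independent evidence of a direction.

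Of the 19 further regulators 5 rose in Kat6a-/-Tg(Kat6b) vs. Kat6a-/- embryos, among them Irx5 (0.27; edgeR FDR = 0.009) and Irx3 (0.17; edgeR FDR = 0.0105), and none of the list fell. Over all genes, 7.14% passed in this comparison and 23.2% had an unadjusted p under 0.05. Of the 26 further sarcomere genes 1 rose, the splicing factor Rbm20 (0.33; edgeR FDR = 0.0449), and of the 21 calcium handling and conduction genes none passed, with 4 at an unadjusted p under 0.05. Of the 18 second heart field genes 5 rose, including Wnt5a (0.43; edgeR FDR = 9.58e-05), Hoxb1 (0.49; edgeR FDR = 0.000528) and Tbx1 (0.36; edgeR FDR = 0.00938). Against wild type embryos 2 of the 18 fell, Aldh1a2 (-0.28; edgeR FDR = 0.00445) and Foxc2 (-0.26; edgeR FDR = 0.0346), where 0.67% of all genes passed. In Tg(Kat6b) vs. wild type embryos no gene of these 4 lists passed in edgeR, with 4 regulators, 1 sarcomere gene, 2 calcium handling and conduction genes and 7 second heart field genes at an unadjusted p under 0.05. Over all genes, 0.14% passed there and 11.5% had an unadjusted p under 0.05.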

How the data were processed

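Per the labels and the methods, total RNA of whole E9.5 embryos was made into TruSeq libraries and sequenced as paired ends, and the reads were aligned to mm39 with Rsubread. The submitters' processing notes also name bcl2fastq and featureCounts. For each embryo the authors deposited raw counts, whole reads per gene with Entrez identifiers, symbols and lengths. The annotation, the strand setting and the treatment of shared reads are not given in the sources used here, which matters for overlapping genes and near-identical copies.

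From these counts, genes were kept by filterByExpr (minimum count 10, minimum total 15; 15679 of 26411). TMM factors were between 0.985 and 1.02. edgeR 4.0.16 in R 4.3.3 fitted all 16 embryos together by robust quasi-likelihood, with 2 surrogate variables (sva 3.50.0). The FDR is the Benjamini-Hochberg value across all genes tested, with calls at 0.05. CPM and RPKM use TMM-scaled library sizes. Positions are from GENCODE on GRCm39. Promoters are from RefSeq on GRCm38.p6. The edgeR, limma-voom and DESeq2 fits were checked on simulated counts. Alternatives were limma-voom (limma 3.58.1), DESeq2 1.42.0, other filters, scaling and covariates, litter and replicate blocks, and leaving out each embryo.

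The 32 genes and the other lists were chosen with earlier results of these data known. Every one of the 32 is accounted for. Genes that passed are given in full, as are the 3 with the smallest p where fewer than 3 passed. From other lists at most 3 genes are named with values, and some results of these lists are not reported here. Afp, Ryr2 in comparisons it did not lead, and genes named for single embryos or for groups that did not overlap were singled out after their values were seen. The embryos were separate animals. Library totals ranged from 14407277 to 45665680, and low counts limit precision. The lowest count, 8 for Bmp10, was in Kat6a-/- replicate 1, with a total of 18354740. The shallowest library held 21 counts of Bmp10, so that low count does not follow from depth alone.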

Additional observations from a re-analysis of the deposited data

Results flagged for a closer look

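Over 128 groups of 4 embryos (32 genes in 4 genotypes), 7 held an embryo whose gap to the nearest of the others exceeded 0.829 of the range of the group, the 95% limit of Dixon's test. Chance flags about 1 in 20 groups, so this number is near what chance gives. In Kat6a-/- replicate 1, Myl2 was at 30.5 CPM against 62.2 to 63.0 CPM in the other 3, and Myl3, the other ventricular light chain, at 29.5 CPM against 41.1 to 43.0 CPM. In Tg(Kat6b) replicate 3, Pln, the inhibitor of the calcium pump, was at 5.77 CPM against 7.33 to 7.64 CPM. Among the wild type embryos, Smyd1 was at 24.6 CPM in replicate 4 against 29.4 to 29.7 CPM, Myl7 at 64.6 CPM in replicate 3 against 79.3 to 80.3 CPM, Actc1 at 299 CPM in replicate 1 against 333 to 337 CPM, and Tnni3 at 14.3 CPM in replicate 4 against 10.3 to 10.4 CPM, the only one of the 7 on the high side.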

How the results depend on the processing

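Of the values of named genes in the comparisons, 589 of 627 kept their direction and their side of the threshold. All 160 wild type levels moved by less than their SD. Leaving out 1 of 4 embryos cannot move a mean by that much, so this is no evidence of stability. The direction turned in 1 case: Ttn in Tg(Kat6b) vs. wild type embryos was at 0.0874 with gene length offsets. In Kat6a-/- vs. wild type embryos, 2 of the 32 genes passed with DESeq2 (2.65% of all genes), 1 when only the 2 genotypes compared were fitted (0.472%), 4 without Kat6a-/- replicate 1 and Tg(Kat6b) replicate 3 (1.23%), and 0 to 3 without 1 embryo, the 3 without Tg(Kat6b) replicate 3 (2.24%). Between Kat6a-/-Tg(Kat6b) and Kat6a-/- embryos, 6 (18.8%) passed in the fit of the 2 genotypes, near the 15.2% of all genes that did, 5 without both embryos (15.6%, against 3.42%) and 2 to 4 without 1 embryo, the 4 again without Tg(Kat6b) replicate 3 (12.5%, against 7.87%). Between Kat6a-/-Tg(Kat6b) and Tg(Kat6b) embryos, 1 gene, Ryr2, passed with no or 1 surrogate variable, with sex in their place, with DESeq2 and without both embryos, with 2.22% to 6.51% of all genes passing. There 2 passed, Ryr2 and Ttn, in the fit of the 2 genotypes (2.27%), and 0 to 1 without 1 embryo, the 1 being Ryr2 without wild type replicate 2 or 4, Kat6a-/- replicate 1 or 4, or Tg(Kat6b) replicate 2 (1.7% to 5.54%). Between Kat6a-/-Tg(Kat6b) and wild type embryos 2 passed in the fit of the 2 genotypes (0.804%), and in Tg(Kat6b) vs. wild type embryos 1 with DESeq2 (2.02%). For both, 0 passed in every fit without 1 embryo. For the interaction, 2 passed with DESeq2 (1.07%), 1 without both embryos (0.12%) and 0 to 2 without 1 embryo. The cause of these changes was not tested. Some of these fits hold different samples, and others hold the same 16 embryos with other software or covariates. Embryos with the same replicate number did not deviate together (correlations from -0.255 to 0.215 over 24 pairs), so the numbers do not pair them. With the replicate block Ryr2 passed between Kat6a-/-Tg(Kat6b) and Tg(Kat6b) embryos (0.725; edgeR FDR = 0.0279), 1 gene in place of 0 with 1.82% of all genes passing, and no other call for the 32 genes changed.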

Other observations

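The endocardium and the epicardium, the inner and outer layers of the heart, were measured in the same libraries. Over all genes, 7.14% passed in Kat6a-/-Tg(Kat6b) vs. Kat6a-/- embryos and 23.2% had an unadjusted p under 0.05. Of 16 genes of the endocardium and its cushions 5 rose and none fell in Kat6a-/-Tg(Kat6b) vs. Kat6a-/- embryos, among them Postn, a matrix protein of the cushions (log2 fold change 1.87; edgeR FDR = 0.00703), Tek, an endothelial receptor (0.30; edgeR FDR = 0.0323), and Tbx20 (0.48; edgeR FDR = 0.0347). Of 8 epicardial genes 2 rose, Upk3b (0.65; edgeR FDR = 0.00957) and Bnc1 (0.51; edgeR FDR = 0.0191). Of 14 genes of the skeletal myotome 1 fell, the embryonic myosin Myh3 (-0.39; edgeR FDR = 0.00986). None of the 10 primitive erythroid genes passed in this comparison in edgeR, and none had an unadjusted p under 0.05. In Kat6a-/- vs. wild type embryos 1 of 8 smooth muscle genes rose, Mylk (0.26; edgeR FDR = 0.0392), and no endocardial, epicardial or myotome gene passed, with 5, 5 and 4 of them at an unadjusted p under 0.05. Over all genes, 1.88% passed there and 15.2% had an unadjusted p under 0.05. The endocardial list summed to between 1210 and 1260 CPM in Kat6a-/-Tg(Kat6b) and between 993 and 1080 CPM in Tg(Kat6b) embryos, and 4 of its 16 genes were higher and 1, Npr3, lower in that comparison, where 3.41% of all genes passed.

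Levels of Nppa were also set against the atrial light chain, and those of Hand1 against Hand2. The ratio of Nppa to Myl7 in RPKM was 0.244 ± 0.0617 in wild type, 0.0999 ± 0.0488 in Kat6a-/-, 0.173 ± 0.0205 in Kat6a-/-Tg(Kat6b) and 0.213 ± 0.0195 in Tg(Kat6b) embryos, each mean and SD over 4 embryos. The highest Kat6a-/- embryo, at 0.147, lay below the lowest wild type embryo, at 0.173, and these ratios were chosen after the values were seen. The ratio of Hand1 to Hand2 was 0.683 ± 0.0699 in wild type, 0.466 ± 0.123 in Kat6a-/-, 0.581 ± 0.0682 in Tg(Kat6b) and 0.77 ± 0.108 in Kat6a-/-Tg(Kat6b) embryos. The Kat6a-/- embryos lay between 0.32 and 0.588 and the wild type embryos between 0.591 and 0.75. The Tg(Kat6b) embryos, between 0.5 and 0.666, overlapped both.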
